A study of Mus musculus with 18 samples.

Results

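The transcripts of 10 genes that set the passage of a cell from G1 into S phase were followed across 2 mouse mammary tumour lines and 3 genotypes. The genes were taken by name, as the rows CDKN2A, CDKN2B, CDKN2C, CDKN1B, CDKN1C, CCND1, CCND2, CCND3, CDK4 and CDK6 of the count tables, and all 10 were found, among 24333 gene symbols held by both tables. They are written below as *Cdkn2a*, *Cdkn2b*, *Cdkn2c*, *Cdkn1b*, *Cdkn1c*, *Ccnd1*, *Ccnd2*, *Ccnd3*, *Cdk4* and *Cdk6*. The lines are 168FARN and 67NR, described as not metastatic, and each was studied as WT, *Kmt2c* KO and *Kmt2d* KO cells grown in DMEM with serum, with 3 replicates of each of the 6 groups and 18 RNA-seq libraries in all. The KO cells were sorted pools rather than clones, made by transfection of Cas9 with 3 sgRNAs against exon 1 of *Kmt2c* or *Kmt2d*, genes for histone methyltransferases that mark enhancers. The WT libraries of 168FARN are named in the count table as carrying a control sgRNA, whereas those of 67NR are named WT, and the labels call both WT. By the study's own definition, replicates were collections of the same cells 1 passage apart, so p-values measure the spread between such collections.

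In G1, D-type cyclins (*Ccnd1*, *Ccnd2* and *Ccnd3*) bind the kinases *Cdk4* and *Cdk6*, and the active complexes phosphorylate the retinoblastoma protein, which then releases E2F factors to switch on genes of DNA replication. INK4 inhibitors (*Cdkn2a*, *Cdkn2b*, *Cdkn2c*) bind the kinases and keep the cyclins off them, and the CIP/KIP inhibitors (*Cdkn1b*, *Cdkn1c*) bind the assembled cyclin complexes. *Cdkn2a* has a pair of first exons, each with its own start site. Transcripts from the proximal start encode p16Ink4a, an INK4 inhibitor. Transcripts from the distal start encode p19Arf, which holds back Mdm2 and thereby stabilizes p53. The other exons are shared, and the counts are per gene, so p16Ink4a and p19Arf transcripts cannot be told apart here.

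The bases in front of 4 start sites are shown, for *Cdkn2a* (distal and proximal start) and *Cdk6*, which were called in both 67NR KOs, and for *Cdk4*, the partner kinase of *Cdk6*, which was not. The sequences are RefSeq's on GRCm38.p6, each the 250 bases before the start, 5′ to 3′ on the gene's strand. Capitals mark E2F-type matches (TTTGGCGC, TTTCGCGC, TTTCCCGC or TTTGCCGC) and E-boxes (CACGTG), both searched on either strand, and no member's window held both motifs. The windows lie at chr4:89294620-89294869 (minus strand, distal *Cdkn2a* start), chr4:89282193-89282442 (minus strand, proximal *Cdkn2a* start), chr10:127063285-127063534 (plus strand, *Cdk4*) and chr5:3343643-3343892 (plus strand, *Cdk6*).
Cdkn2a distal: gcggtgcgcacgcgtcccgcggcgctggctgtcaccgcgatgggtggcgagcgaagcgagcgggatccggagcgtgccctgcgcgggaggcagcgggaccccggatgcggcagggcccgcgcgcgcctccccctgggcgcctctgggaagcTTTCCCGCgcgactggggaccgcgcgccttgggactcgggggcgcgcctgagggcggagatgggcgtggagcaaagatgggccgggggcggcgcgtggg
Cdkn2a proximal: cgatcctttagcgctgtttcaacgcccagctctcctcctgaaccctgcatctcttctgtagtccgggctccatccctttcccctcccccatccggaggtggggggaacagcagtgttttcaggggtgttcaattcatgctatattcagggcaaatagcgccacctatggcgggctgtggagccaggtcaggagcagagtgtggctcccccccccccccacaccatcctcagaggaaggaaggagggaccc
Cdk4: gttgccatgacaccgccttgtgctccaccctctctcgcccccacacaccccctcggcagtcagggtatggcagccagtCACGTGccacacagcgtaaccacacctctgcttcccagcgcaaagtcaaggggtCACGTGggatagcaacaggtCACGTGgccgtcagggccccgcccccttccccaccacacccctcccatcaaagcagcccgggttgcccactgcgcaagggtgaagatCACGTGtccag
Cdk6: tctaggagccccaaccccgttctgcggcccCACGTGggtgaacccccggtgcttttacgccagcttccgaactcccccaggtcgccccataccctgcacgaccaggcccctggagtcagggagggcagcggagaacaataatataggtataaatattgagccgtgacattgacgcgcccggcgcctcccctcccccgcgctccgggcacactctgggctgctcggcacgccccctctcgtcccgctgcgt

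The distal window of *Cdkn2a* held 1 E2F-type match and 40 CG dinucleotides, and 98.9% of all RefSeq start windows held as many or fewer. The proximal window held neither motif and 7 CG dinucleotides, against a median of 6 over 32851 windows. For the kinases, the window of *Cdk4* held 4 E-boxes and that of *Cdk6* held 1. An E2F-type match was present in 1.86% of all windows and an E-box in 6.02%. Among the members, 7 had a RefSeq window and these had 10 windows in all, of which 1 held an E2F-type match and 2 held an E-box. *Ccnd1*, *Ccnd2* and *Cdkn1c* had none. These matches describe the letters and say nothing of which start was used.

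On mm9, the build of the count tables, *Cdkn2a* (ENSMUSG00000044303.5) covers positions 88920377 to 88940557 of chromosome 4 on the minus strand, and *Cdkn2b* (88952198 to 88956941) lies 11.6 kb beyond it on the same strand. *Cdkn2c* lies on the same chromosome from 109333481 to 109339794. *Cdkn1b* (134870419 to 134875531) and *Ccnd2* (127075797 to 127101066) are on chromosome 6, and *Cdkn1c* (150644255 to 150646955) and *Ccnd1* (152115836 to 152125774) on chromosome 7. *Ccnd3* spans positions 47642000 to 47736632 of chromosome 17, *Cdk4* 126500590 to 126504976 of chromosome 10 and *Cdk6* 3343893 to 3523218 of chromosome 5. A few members share bases with a neighbouring gene, *Ccnd1* with *Oraov1* (818 bases), *Ccnd2* with *9330179D12Rik* (1660 bases), *Ccnd3* with *Bysl* (353 bases) and *Cdk4* with *Tspan31* (604 bases). Whether counting used strand is not given in the sources used here, so those counts are uncertain.

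The libraries held 14359760 to 79251530 reads assigned to genes. The guides cut exon 1 and leave the rest of the transcript to be counted, so the level of the targeted gene checks nothing about the KO. The paper checked the KOs by sequencing the targeted regions and by immunoblots, which showed reduced protein. By its sequencing, mutant reads made up the smallest part in 67NR *Kmt2c* KO, where a part of the reads was not mutant. *Kmt2c* stood at 98.5, 91.8 and 48.0 CPM in its own KO in 168FARN against 117, 108 and 45.5 CPM in WT, and in 67NR at 85.4, 92.2 and 82.9 against 58.1, 64.7 and 55.7 CPM. *Kmt2d* stood at 299, 264 and 139 CPM in its own KO in 168FARN against 165, 163 and 106 CPM in WT, and in 67NR at 91.0, 141 and 95.9 against 114, 99.7 and 84.7 CPM. CPM are reads scaled to the size of the library, here with edgeR's TMM factors over all 18 libraries. Replicate 3 of 67NR *Kmt2d* KO had 28.7% of its reads on the ribosomal gene *Rn45s*, against 0.458% to 4.96% in the other 17 libraries. Of the 5 epithelial markers, 1 or 2 were at 0 in every library of a 168FARN group, and none was in 67NR. They summed to 98.9 to 397 CPM over the libraries of 168FARN. In 67NR, WT libraries summed to 2096 to 3403 CPM. *Kmt2c* KO libraries summed to 432 to 758 CPM (5 of 5 markers called lower) and *Kmt2d* KO libraries to 732 to 1525 CPM (4 of 5). The 5 mesenchymal markers summed to 7149 to 14075 CPM in the libraries of 168FARN and to 3170 to 6063 CPM in those of 67NR. In each 67NR KO 2 of them (*Vim* and *Pdgfrb*) were higher and 1 (*Fn1*) lower than in WT. The 5 leukocyte markers summed to at most 0.351 CPM and the 5 endothelial markers to at most 5.42 CPM, of which *Cdh5* was called higher in both 67NR KOs and in 168FARN *Kmt2c* KO. These markers moved in the same libraries as the differences described below, and their part in them was not tested.

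Replicate 3 of every group stood apart in both lines. The 20 E2F target genes chosen as a readout of S phase, among them the *Mcm2* to *Mcm7* helicase subunits, summed to 820 to 952 CPM in replicates 1 and 2 of 168FARN and to 4351 to 5047 CPM in replicate 3. In 67NR the sums were 729 to 1118 CPM in replicates 1 and 2 and 2882 to 3175 CPM in replicate 3. Several members stood apart in the same libraries, as the plot of ratios between replicates shows. In 168FARN, *Ccnd1* was 2.08 to 2.23 times as high in replicate 3 as in the mean of replicates 1 and 2 of the same genotype, and *Cdkn2a* (0.333 to 0.427 times) and *Cdkn1b* (0.520 to 0.531 times) were lower. In 67NR it was *Cdkn2c* that was higher, at 2.03 to 2.21 times, and *Ccnd2* that was lower, at 0.293 to 0.439 times. *Cdk4* was 1.29 to 1.63 times as high in all 6 groups. These ratios are a description of 1 library in each group, and what sets replicate 3 apart was not tested.

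**Figure D1:**
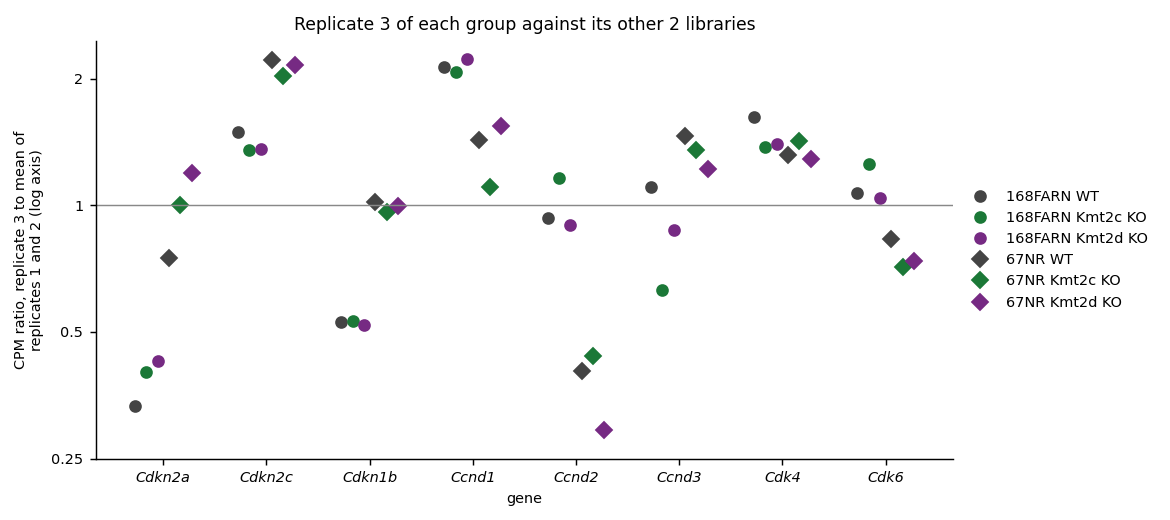
Ratio of the level (CPM) in replicate 3 to the mean CPM of replicates 1 and 2 for the 8 tested members (y axis, log scale), with 1 point for each of the 6 groups, circles for 168FARN and diamonds for 67NR. *Ccnd1* stands above 2 in the 3 groups of 168FARN, *Cdkn2c* above 2 in those of 67NR, and *Ccnd2* below 0.439 in 67NR.

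In the WT libraries, reads per kilobase put *Cdk4* and *Ccnd1* far above the other members. In 168FARN WT, *Cdk4* stood at 283 ± 84.7 and *Ccnd1* at 270 ± 129 CPM per kilobase (SD, n = 3), which did not differ beyond their spread. They were followed by *Cdkn1b* at 51.1 ± 17.6, *Cdk6* at 32.9 ± 1.54, *Ccnd2* at 28.7 ± 2.24, *Cdkn2c* at 27.3 ± 6.79, *Ccnd3* at 24.7 ± 1.75 and *Cdkn2a* at 22.2 ± 11.3 CPM per kilobase. The libraries of *Ccnd2* and *Ccnd3* did not overlap each other, and those of *Cdkn2c* and *Cdkn2a* overlapped both. In 67NR WT the highest were *Ccnd1* at 236 ± 52.2 and *Cdk4* at 193 ± 33.1, which overlapped, followed by *Cdkn1b* at 51.3 ± 1.96, and *Cdkn2a* was at 0.967 ± 0.216 CPM per kilobase.

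Each KO was compared with WT of its line by edgeR's quasi-likelihood test over all genes. Calls needed a Benjamini-Hochberg adjusted p under 0.1 together with a log2 fold change beyond 0.6 in either direction. The filter on low counts removed *Cdkn2b* and *Cdkn1c* from every comparison, and the other 8 members were tested in each. In 67NR *Kmt2c* KO cells 3 of the 8 were higher than in WT (*Cdkn2a*, *Ccnd1* and *Cdk6*) and 0 lower, where 17.9% of the 13665 genes tested were higher and 17.4% lower. In 67NR *Kmt2d* KO cells 2 were higher (*Cdkn2a* and *Cdk6*) and 1 lower (*Ccnd3*), with 13.9% of all genes higher and 11.6% lower. Beside such shares, 2 or 3 of 8 members are not a result about the set. In 168FARN, 0 of 8 members were called in either KO by edgeR or by DESeq2, 1 in *Kmt2c* KO (*Ccnd3*) and 0 in *Kmt2d* KO had an unadjusted p under 0.05, and 0.359% and 0.286% of the 12253 genes tested were called. With the replicate number as a block these shares were 7.23% and 5.90%, and still 0 of 8 members were called.

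**Figure D2:**
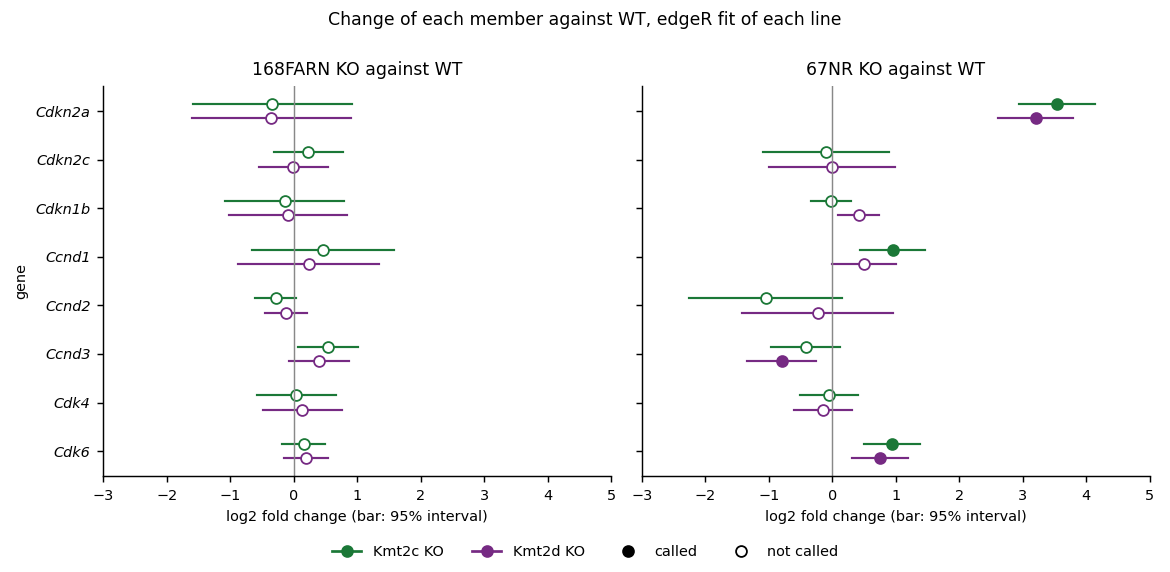
Log2 fold change of the 8 tested members against WT (x axis) in 168FARN (left) and 67NR (right), with the 95% interval of edgeR's fit as a bar, *Kmt2c* KO in green and *Kmt2d* KO in purple. Filled points are called, and they lie in 67NR, at *Cdkn2a*, *Ccnd1*, *Ccnd3* and *Cdk6*.

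*Cdkn2a* had the largest fold change of the 8 tested members in both 67NR comparisons. The 67NR WT libraries held 1.12, 0.837 and 0.735 CPM, 184 reads in all. The 67NR *Kmt2c* KO libraries held 10.5, 9.34 and 9.91 CPM, and the *Kmt2d* KO libraries 6.0, 8.85 and 8.89 CPM. Every KO library was above every WT library and below replicates 1 and 2 of each 168FARN group. Against WT, *Cdkn2a* rose by 3.53 ± 0.27 (SE) on the log2 scale in *Kmt2c* KO, an 11.6-fold higher level with an adjusted p of 1.6e-05 by edgeR, and by 3.20 ± 0.26 in *Kmt2d* KO, 9.21-fold with an adjusted p of 4.5e-05. Leaving out any 1 of the 6 libraries compared kept the log2 fold change between 3.41 and 3.72 in *Kmt2c* KO and between 3.08 and 3.41 in *Kmt2d* KO. In replicates 1 and 2 alone it was 3.41 and 2.99. In bulk RNA, fewer or more cells of a type and less or more RNA per cell cannot be told apart.

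In 168FARN, *Cdkn2a* was detected in all genotypes. The WT libraries held 28.9, 24.2 and 8.83 CPM, those of *Kmt2c* KO 21.8, 18.9 and 8.15 CPM and those of *Kmt2d* KO 19.7, 19.7 and 8.40 CPM. Replicate 3 was the low one in each group, and the groups overlapped. The log2 difference from WT was -0.34 in *Kmt2c* KO (95% interval -1.59 to 0.91) and -0.35 in *Kmt2d* KO (-1.60 to 0.90). These wide intervals hold the gap between replicate 3 and the others. With the replicate as a block the differences were -0.30 ± 0.12 and -0.30 ± 0.13 (adjusted p = 0.15 and 0.19 by edgeR), and neither was called. Between the WT cells of the lines, *Cdkn2a* was lower in 67NR by 4.51 ± 0.50 on the log2 scale, 22.7-fold, with an adjusted p of 3.6e-06 in edgeR's fit of all 18 libraries. It was the 1 member of 8 called in that comparison, in which 39.2% of the 13882 genes tested were called. The effect of the KO differed between the lines by 3.79 ± 0.64 for *Kmt2c* (adjusted p = 8.0e-04) and by 3.50 ± 0.63 for *Kmt2d* (adjusted p = 0.0023).

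**Figure D3:**
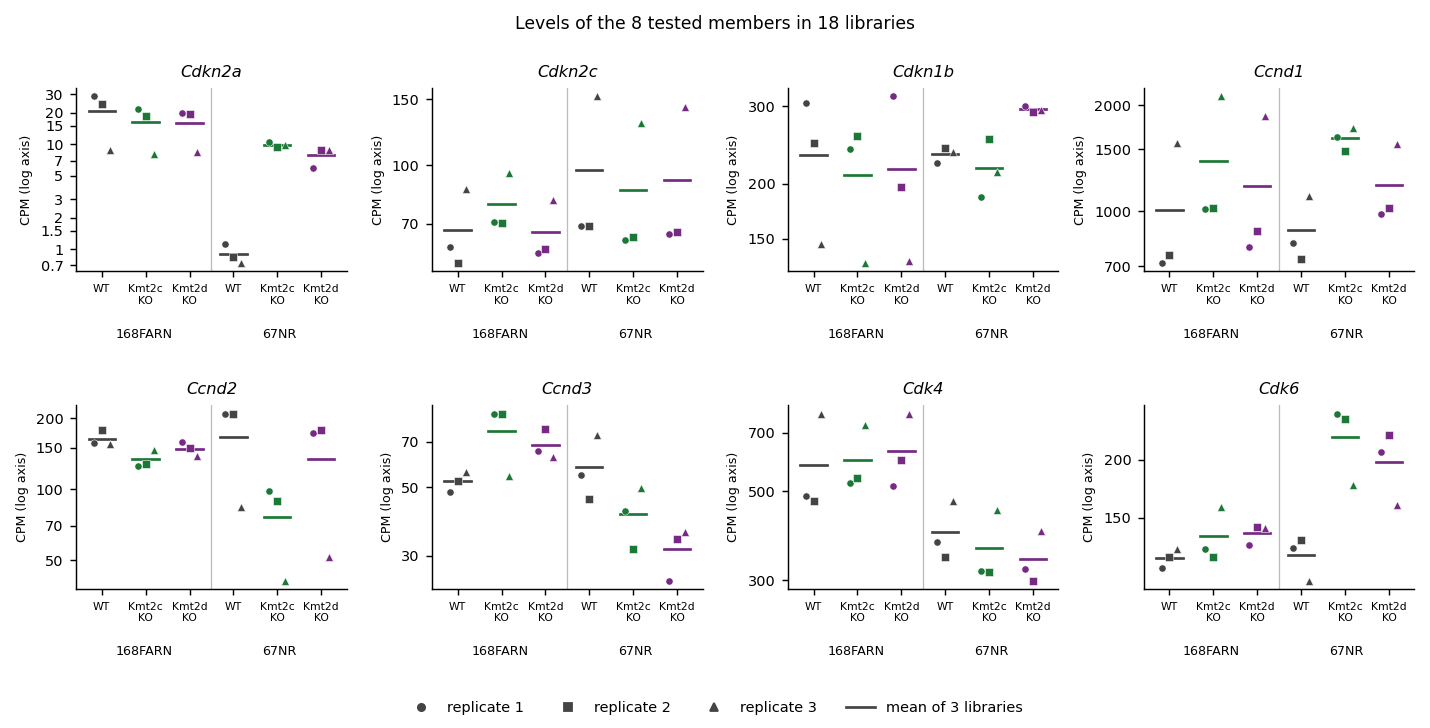
CPM of the 8 tested members (y axis, log scale) in each of the 18 libraries, by line and genotype, with the shape of a point giving the replicate and a bar the mean of 3 libraries. *Cdkn2a* in 67NR WT lies at 1.12 CPM or below and in 67NR KO cells between 6.0 and 10.5 CPM, and the triangles of replicate 3 stand apart for most members.

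*Cdkn2b*, the INK4 inhibitor (p15) next to *Cdkn2a*, was close to absent. It had 6 reads in all over the 9 libraries of 168FARN, with at most 2 in a library, and 0 in each of the 9 libraries of 67NR. A count of 0 allows up to 3 reads, which is 0.0355 to 0.0753 CPM in the 67NR libraries, for counting error only. So the higher *Cdkn2a* of the 67NR KO cells came with no detectable read on its neighbour.

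*Cdkn2c* (p18), the remaining INK4 gene of the set, varied more with the replicate than with the genotype. In 67NR, WT libraries held 69.3, 68.9 and 153 CPM, those of *Kmt2c* KO 63.3, 64.6 and 130 CPM and those of *Kmt2d* KO 66.0, 66.6 and 143 CPM. In 168FARN the values were 60.9, 55.1 and 86.6 CPM for WT, 70.9, 70.2 and 95.7 CPM for *Kmt2c* KO and 58.6, 60.1 and 81.0 CPM for *Kmt2d* KO. The groups overlapped in each comparison with WT. Its log2 differences from WT were -0.09 (95% interval -1.09 to 0.90) and -0.01 (-0.999 to 0.98) in 67NR and 0.23 (-0.32 to 0.77) and -0.01 (-0.55 to 0.54) in 168FARN, for *Kmt2c* KO and *Kmt2d* KO in turn. With the replicate as a block none of the 4 reached an adjusted p under 0.1.

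Per kilobase, *Cdkn2a* made up 2.84 ± 1.46% (SD, n = 3) of the reads on *Cdkn2a*, *Cdkn2b* and *Cdkn2c* together in 67NR WT. With *Kmt2c* KO the share was 25.1 ± 7.22% and with *Kmt2d* KO 19.9 ± 5.97%, and the ranges of WT and KO libraries did not overlap. In 168FARN WT libraries the share was 43.6 ± 19.4%, against 35.0 ± 14.4% with *Kmt2c* KO and 38.5 ± 14.6% with *Kmt2d* KO. In 67NR the 3 genes summed to 40.2 ± 19.4 CPM per kilobase in WT. The sums were 45.4 ± 15.4 with *Kmt2c* KO and 45.7 ± 18.9 with *Kmt2d* KO. Much of this spread lay between replicate 3 and the others. By replicate number, WT held 29.2, 28.8 and 62.6 CPM per kilobase. The sums were 36.9, 36.2 and 63.2 with *Kmt2c* KO and 33.1, 36.5 and 67.3 with *Kmt2d* KO. Each KO library was above the WT library of the same number, and the sums were not tested.

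*Cdkn1b* (p27) showed a small difference in 1 KO. In 67NR the WT libraries held 223, 241 and 236 CPM, those of *Kmt2c* KO 187, 252 and 212 CPM and those of *Kmt2d* KO 300, 291 and 294 CPM. All 3 *Kmt2d* KO libraries were above all WT libraries. The difference of 0.42 ± 0.14 on the log2 scale had an adjusted p of 0.066 by edgeR and lay under the fold change threshold, so it was not called. In *Kmt2c* KO it was -0.02 (95% interval -0.34 to 0.30). In 168FARN, *Cdkn1b* was at 304, 247 and 146 CPM in WT, and the log2 differences of -0.15 (*Kmt2c* KO) and -0.09 (*Kmt2d* KO, with 316, 197 and 134 CPM) had intervals of -1.08 to 0.79 and -1.02 to 0.84. *Cdkn1c* (p57), the other CIP/KIP member of the set, had 0 to 26 reads per library and at most 0.397 CPM, with 0 reads in replicate 3 of each 168FARN group.

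*Ccnd1*, which encodes cyclin D1, was the most abundant D-type cyclin in all 18 libraries. It was at 812, 735 and 1105 CPM in 67NR WT and at 1622, 1484 and 1721 CPM in *Kmt2c* KO cells, without overlap. It rose there by 0.95 ± 0.23 on the log2 scale, 1.93-fold, with an adjusted p of 0.011 by edgeR, and stayed called without any 1 library, between 0.82 and 1.14. In *Kmt2d* KO cells it was at 986, 1022 and 1553 CPM, and the difference of 0.50 ± 0.23 (95% interval -0.01 to 1.01) was not called, with an adjusted p of 0.15. Leaving out WT replicate 3 made it a call, at 0.69 (adjusted p = 0.043). The direct comparison of the KOs gave 0.45 in the direction of *Kmt2c* KO (-0.06 to 0.96, adjusted p = 0.53). The neighbour *Oraov1*, which overlaps *Ccnd1*, was higher in *Kmt2c* KO by 0.97 ± 0.20 (adjusted p = 0.0052), and reads of the shared bases cannot be assigned.

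In 168FARN, *Ccnd1* stood at 714, 753 and 1566 CPM in the WT libraries, at 1012, 1024 and 2119 CPM with *Kmt2c* KO and at 793, 879 and 1862 CPM with *Kmt2d* KO. In replicates 1 and 2 the order was WT, *Kmt2d* KO, *Kmt2c* KO without overlap, and replicate 3 had the same order. The spread between replicate 3 and the others was wider than that between genotypes. The log2 difference of *Kmt2c* KO from WT was 0.45 ± 0.49 and not called, with a 95% interval of -0.66 to 1.57, and with the replicate as a block it was 0.46 ± 0.11 with an adjusted p of 0.021, still under the fold change threshold. In *Kmt2d* KO it was 0.23 (-0.88 to 1.35).

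*Ccnd2*, which encodes cyclin D2, showed the opposite direction in 67NR *Kmt2c* KO cells, and its call turned on how the replicates were treated. WT libraries held 208, 209 and 83.9 CPM, those of *Kmt2c* KO 98.0, 88.9 and 41.0 CPM and those of *Kmt2d* KO 173, 178 and 51.5 CPM. At each of the 3 replicate numbers the *Kmt2c* KO library was below the WT library, while the groups overlapped through the low WT replicate 3. Without a block the log2 difference was -1.05 ± 0.53 with an adjusted p of 0.16, and with the replicate as a block -1.03 ± 0.14 with an adjusted p of 1.0e-04, which is a call. Among all genes, 19.9% were lower with the block. Leaving out WT replicate 3 made it a call without the block too, at -1.37 (adjusted p = 0.069). In *Kmt2d* KO cells it was -0.23 (95% interval -1.42 to 0.96). *Kmt2c* KO was below *Kmt2d* KO by 0.72 on the log2 scale with the block (adjusted p = 0.012, with 5.70% of genes lower), and without it the log2 difference was -0.82 with an adjusted p of 0.65. In 168FARN, *Ccnd2* held 156, 178 and 156 CPM in WT libraries, 126, 128 and 147 CPM in those of *Kmt2c* KO and 158, 149 and 138 CPM in those of *Kmt2d* KO. All *Kmt2c* KO libraries were below WT, but the log2 difference of -0.29 (-0.62 to 0.04) was not called, nor was that of -0.13 (-0.45 to 0.20) in *Kmt2d* KO.

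*Ccnd3*, which encodes cyclin D3, was lower in 67NR *Kmt2d* KO cells. WT libraries held 54.7, 45.8 and 73.6 CPM, those of *Kmt2c* KO 41.7, 31.6 and 49.5 CPM and those of *Kmt2d* KO 24.9, 33.9 and 35.9 CPM. The *Kmt2d* KO libraries were all below the WT libraries, and the *Kmt2c* KO libraries overlapped WT. In *Kmt2d* KO cells it fell by 0.80 ± 0.24 on the log2 scale, 1.74-fold, with an adjusted p of 0.041 by edgeR. The call was lost without WT replicate 3 (-0.59, adjusted p = 0.087) and without *Kmt2d* KO replicate 1 (-0.65, adjusted p = 0.14). In *Kmt2c* KO cells the log2 difference was -0.42 (95% interval -0.96 to 0.12, adjusted p = 0.21).

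In 168FARN the log2 differences of *Ccnd3* had the other sign, 0.54 ± 0.21 in *Kmt2c* KO and 0.40 ± 0.21 in *Kmt2d* KO, neither called. WT was at 48.4, 52.5 and 55.8 CPM, *Kmt2c* KO at 86.1, 86.4 and 54.4 CPM and *Kmt2d* KO at 65.3, 77.1 and 62.4 CPM. In replicates 1 and 2 alone *Ccnd3* was called in *Kmt2c* KO, at 0.79 with an adjusted p of 2.1e-04. Tested directly, the effect of the KO on *Ccnd3* differed between the lines by -1.04 ± 0.33 for *Kmt2c* (adjusted p = 0.053) and by -1.26 ± 0.33 for *Kmt2d* (adjusted p = 0.029).

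The makeup of the D-type cyclin transcripts also differed between genotypes in 67NR. Per kilobase, *Ccnd1* made up 80.2 ± 4.76% of D-type cyclin reads in 67NR WT, 92.9 ± 0.81% with *Kmt2c* KO and 88.5 ± 4.87% with *Kmt2d* KO (SD, n = 3). The share of *Ccnd3* was 9.29 ± 0.80% in WT, 4.15 ± 0.64% with *Kmt2c* KO and 4.24 ± 0.67% with *Kmt2d* KO, and neither KO overlapped WT. In 168FARN the share of *Ccnd1* was 82.0 ± 5.77%, 84.7 ± 6.05% and 82.5 ± 6.71%, within the spread. The shares are values within a library and were not tested.

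**Figure D4:**
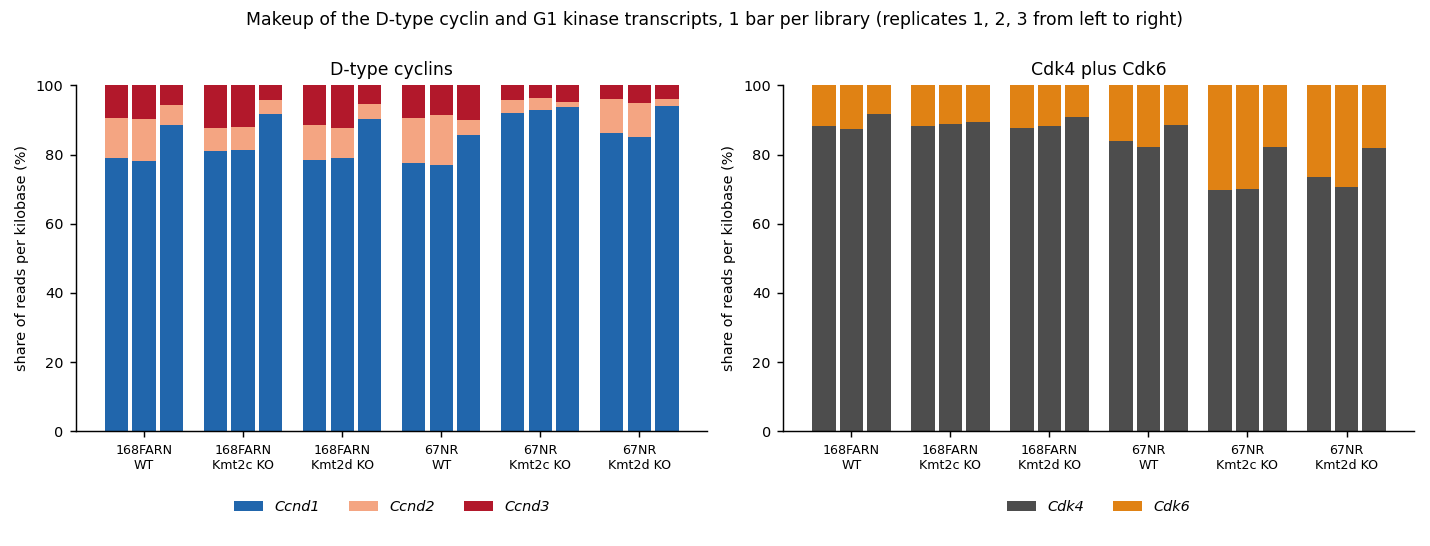
Share of reads per kilobase (y axis, %) of *Ccnd1*, *Ccnd2* and *Ccnd3* among D-type cyclins (left) and of *Cdk4* and *Cdk6* in their sum (right), with 1 bar per library and 3 per group. *Cdk6* takes a larger part in the 67NR KO libraries than in WT libraries of the same replicate number, and *Ccnd1* takes the largest part of the cyclins in every library.

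Of the partner kinases, *Cdk6* rose in both 67NR KOs and *Cdk4* was not called. For *Cdk6*, WT libraries held 129, 135 and 110 CPM, those of *Kmt2c* KO 252, 245 and 177 CPM and those of *Kmt2d* KO 208, 226 and 160 CPM, and every KO library was above every WT library. It rose by 0.93 ± 0.20 in *Kmt2c* KO, 1.91-fold with an adjusted p of 0.0057, and by 0.75 ± 0.20 in *Kmt2d* KO, 1.68-fold with an adjusted p of 0.023, both by edgeR. Both calls held without any 1 of the libraries compared, at 0.83 to 1.09 and 0.64 to 0.90. For *Cdk4*, WT libraries held 374, 344 and 473 CPM, those of *Kmt2c* KO 318, 315 and 450 CPM and those of *Kmt2d* KO 320, 300 and 399 CPM, and these groups overlapped. Its log2 differences were -0.05 (95% interval -0.51 to 0.40) and -0.15 (-0.60 to 0.30).

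As a share of *Cdk4* plus *Cdk6* per kilobase, *Cdk4* stood at 85.0 ± 3.31% in 67NR WT, 74.0 ± 7.15% with *Kmt2c* KO and 75.4 ± 5.83% with *Kmt2d* KO. In 168FARN it stood at 89.2 ± 2.24%, 88.8 ± 0.60% and 89.0 ± 1.64%. There *Cdk6* ranged from 117 to 128 CPM in WT, from 124 to 158 CPM with *Kmt2c* KO and from 131 to 143 CPM with *Kmt2d* KO, with log2 differences of 0.15 (95% interval -0.19 to 0.50) and 0.19 (-0.15 to 0.53). *Cdk4* in 168FARN ranged from 473 to 782 CPM in WT, from 524 to 731 CPM with *Kmt2c* KO and from 517 to 781 CPM with *Kmt2d* KO, with log2 differences of 0.04 (-0.58 to 0.67) and 0.13 (-0.49 to 0.76). The difference between the lines was called for *Cdk6* in *Kmt2c* KO, at 0.70 ± 0.25 (adjusted p = 0.088), and not in *Kmt2d* KO, at 0.49 ± 0.25 (adjusted p = 0.31). Between WT cells, *Cdk4* was lower in 67NR by 0.55 ± 0.25 on the log2 scale, without overlap but not called (adjusted p = 0.10). It was called there without 168FARN WT replicate 1 (-0.69, adjusted p = 0.064), without 168FARN WT replicate 2 (-0.71, adjusted p = 0.057) and without 67NR WT replicate 3 (-0.69, adjusted p = 0.063).

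Over both lines, the difference between the lines was called for 3 of 8 members in *Kmt2c* KO (*Cdkn2a*, *Cdk6* and *Ccnd3*), where 16.0% of the 13882 genes tested were called, and for 2 of 8 in *Kmt2d* KO (*Cdkn2a* and *Ccnd3*), where 10.6% were. With the replicate block *Ccnd2* joined them in *Kmt2c* KO, at -0.83 with an adjusted p of 0.0019 and 17.2% of genes lower. Between the KOs, the test without the block called 0 of 8 members in 168FARN (0.253% of all genes called) and 0 of 8 in 67NR (1.41%), with 0 and 1 (*Cdkn1b*) at an unadjusted p under 0.05. DESeq2 called 0 in both as well, and with the block *Ccnd2* was called in 67NR, as given above. For *Cdkn2a* in 67NR the interval of the difference between the KOs was -0.20 to 0.87, and for *Cdk6* it was -0.26 to 0.62.

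The rest of the G1/S machinery was read from a list of 28 genes (inhibitors, E- and A-type cyclins, *Cdk2*, the retinoblastoma family, E2F factors and their regulators), all of them tested. In 67NR *Kmt2c* KO cells 4 were higher and 1 lower, and in *Kmt2d* KO cells 5 were higher and 1 lower, with list medians of 0.25 and 0.12 on the log2 scale against -0.02 and -0.02 for all genes. Beside the shares of all genes given above (17.9% higher and 17.4% lower in *Kmt2c* KO, 13.9% and 11.6% in *Kmt2d* KO), these counts are not a result about the list. In 168FARN 0 of 28 were called in either KO by edgeR or DESeq2, and 0 had an unadjusted p under 0.05. With the replicate block the counts in 67NR were 10 higher and 2 lower for *Kmt2c* KO, where 21.3% of all genes were higher and 19.9% lower, and 7 higher and 0 lower for *Kmt2d* KO, where 17.4% were higher and 15.4% lower. In 168FARN they became 1 higher (*Cdkn2d*) and 1 lower (*Mnat1*) for *Kmt2c* KO and 0 for *Kmt2d* KO, against 7.23% and 5.90% of all genes called. With the block, 9 and 5 genes of the list had an unadjusted p under 0.05 by edgeR. The share of all genes under that p was not taken.

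*Cdkn1a*, which encodes the CIP/KIP inhibitor p21 and is a p53 target, had the largest change of the list. In 67NR, WT libraries held 11.7 to 43.1 CPM, those of *Kmt2c* KO 148 to 257 CPM and those of *Kmt2d* KO 95.9 to 162 CPM. It rose by 2.89 ± 0.47 (adjusted p = 0.0014) and by 2.23 ± 0.45 (adjusted p = 0.0075) on the log2 scale, and in 168FARN it was at 129 to 325 CPM over the 9 libraries. As for *Cdkn2a*, WT cells of 67NR were below WT cells of 168FARN, here by 3.09 ± 0.49 (adjusted p = 1.1e-04). The effect of the KO differed between the lines by 2.84 ± 0.65 for *Kmt2c* (adjusted p = 0.0084) and 2.44 ± 0.65 for *Kmt2d* (adjusted p = 0.030).

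E-type cyclins, which activate *Cdk2* after the D-type cyclins, were higher in both 67NR KOs. *Ccne2* rose by 1.76 ± 0.31 (adjusted p = 0.0024) in *Kmt2c* KO and 1.51 ± 0.31 (adjusted p = 0.0081) in *Kmt2d* KO cells, and *Ccne1* by 1.72 ± 0.48 (adjusted p = 0.022) and 1.30 ± 0.48 (adjusted p = 0.083). *Rb1*, the substrate of the cyclin D kinases, rose by 0.91 ± 0.26 (adjusted p = 0.025) and 1.03 ± 0.26 (adjusted p = 0.021). *E2f5* (0.63 ± 0.17, adjusted p = 0.023) was higher and the phosphatase gene *Cdc25a* (-0.61 ± 0.22, adjusted p = 0.076) lower in *Kmt2d* KO, and *Cdk7*, the kinase that activates other CDKs, lower in *Kmt2c* KO (-0.72 ± 0.26, adjusted p = 0.061). *Cdk2* (0.41 and 0.16) and the INK4 gene *Cdkn2d* (1.00 and 0.63) were not called in 67NR, with adjusted p of 0.48 and 0.82 and of 0.15 and 0.41. With the block *Cdkn2d* was called in *Kmt2c* KO (1.01, adjusted p = 0.0095).

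Some of these calls rested on single libraries. *Ccne1* in *Kmt2d* KO lost its call without any 1 of the 6 libraries compared other than WT replicate 3, and its adjusted p over the 6 fits ran from 0.021 to 0.23. *Cdk7* did so likewise in *Kmt2c* KO (0.0026 to 0.21 over the 6 fits), *Cdc25a* was called only without WT replicate 1 or 2 (0.067 to 0.20), and *E2f5* lost its fold change of 0.6 without WT replicate 1 (0.52) or *Kmt2d* KO replicate 1 (0.57). *Cdkn1a*, *Ccne2* and *Rb1* kept theirs in all 6 fits of each KO. With the replicate block *Cdc25a* was at -0.58 (adjusted p = 0.014), under the fold change threshold and so not called. In fits of the 6 libraries compared alone, *Cdk7* (adjusted p = 0.103), *Ccne1* in *Kmt2d* KO (adjusted p = 0.103) and *Cdc25a* (-0.59, adjusted p = 0.15) lost their calls.

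Of the p53 genes beside *Cdkn2a*, *Trp53* and *Mdm2* were higher in both 67NR KOs and *Mdm4* was not called. *Trp53*, which encodes p53, ranged in 67NR from 64.6 to 116 CPM in WT, from 153 to 220 CPM with *Kmt2c* KO and from 126 to 155 CPM with *Kmt2d* KO, a rise of 1.07 ± 0.23 (adjusted p = 0.0061) and 0.68 ± 0.23 (adjusted p = 0.062). *Mdm2*, a p53 target whose product degrades p53, rose by 1.77 ± 0.43 (adjusted p = 0.012) and 1.51 ± 0.43 (adjusted p = 0.033). In *Kmt2d* KO the call of *Trp53* was kept without WT replicate 1 and lost without any other 1 library (adjusted p of 0.050 to 0.19 over the 6 fits), it was also lost in replicates 1 and 2 alone (0.47, under the fold change threshold), and that of *Mdm2* was lost without *Kmt2d* KO replicate 1 (adjusted p = 0.11). Between WT cells both were lower in 67NR, *Trp53* by 1.32 ± 0.21 and *Mdm2* by 1.57 ± 0.37 on the log2 scale (adjusted p = 1.3e-04 and 0.0032). In 168FARN the log2 differences of these 3 genes from WT lay between -0.14 and 0.37, with 0 of 3 called in either KO and 0 at an unadjusted p under 0.05 by edgeR.

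**Figure D5:**
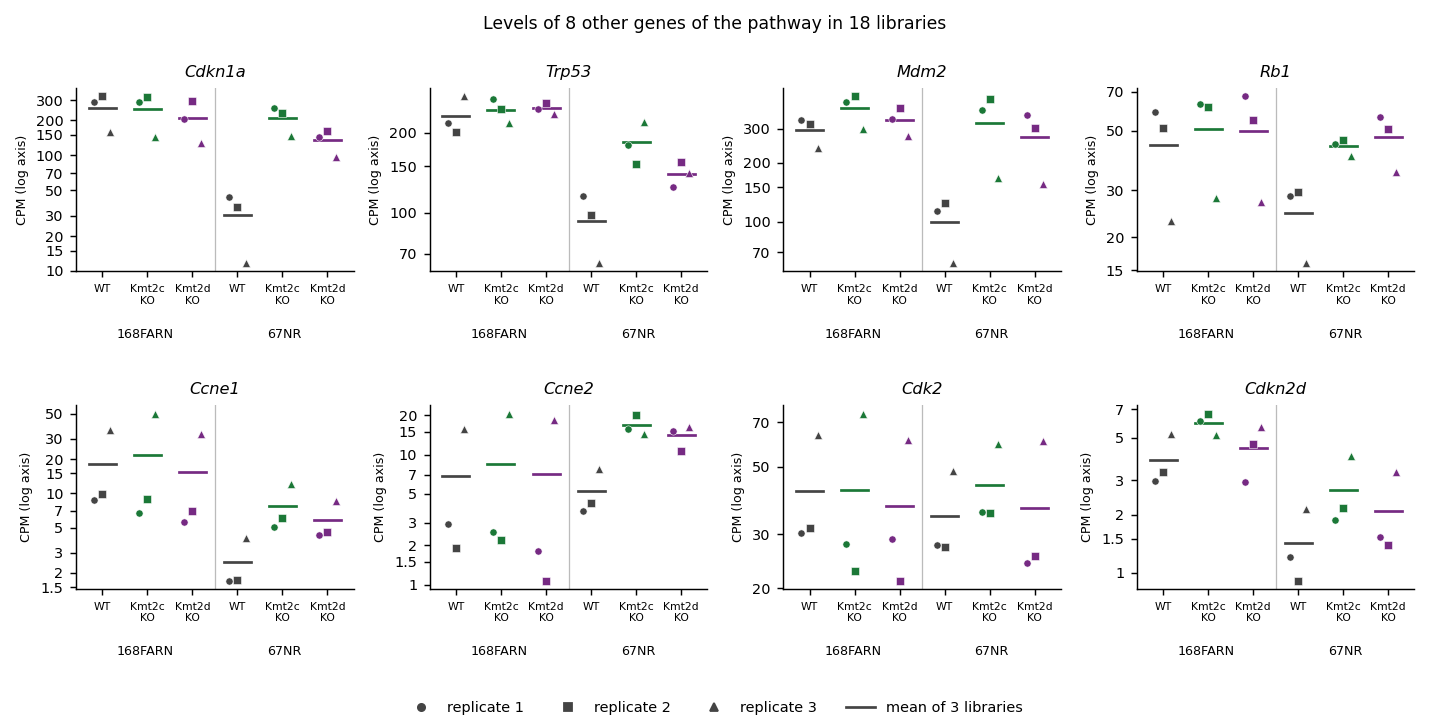
CPM of 8 other genes of the pathway (y axis, log scale) in each of the 18 libraries, by line and genotype, with the shape of a point giving the replicate and a bar the mean of 3 libraries. *Cdkn1a*, *Trp53* and *Mdm2* are lowest in 67NR WT, and *Ccne1* and *Cdk2* are highest in replicate 3 of each 168FARN group.

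Of the 20 E2F target genes, edgeR called 0 in each KO of each line and 0 had an unadjusted p under 0.05, while DESeq2 called 1 in 67NR *Kmt2c* KO. The gap between replicate 3 and the others entered the spread of that test. List medians in 168FARN were 0.24 (*Kmt2c* KO) and 0.14 (*Kmt2d* KO) on the log2 scale, against 0.01 for all genes in each. In 67NR they were -0.10 and -0.32, against -0.02 in each. Differences above 0 were seen for 18 and 16 of the 20 genes in 168FARN and for 9 and 5 in 67NR. These medians were not tested. With the replicate as a block, 4 were higher and 2 lower in 67NR *Kmt2c* KO, 1 higher and 8 lower in 67NR *Kmt2d* KO, and 1 (*Chaf1b*) higher in 168FARN *Kmt2c* KO. Among all genes the block gave 21.3% higher and 19.9% lower in 67NR *Kmt2c* KO, 17.4% and 15.4% in 67NR *Kmt2d* KO, and 7.23% in either direction in 168FARN *Kmt2c* KO. The 8 lower ones were *Mcm2*, *Mcm3*, *Mcm4*, *Mcm5*, *Mcm6*, *Mcm7*, *Cdc6* and *Chaf1b*, at -0.70 to -1.38 on the log2 scale, and *Rrm2* was higher at 0.79. Those higher in *Kmt2c* KO included *Rrm1*, *Rrm2* and *Pola1*, at 0.70 to 1.24, and *Mcm6* and *Chaf1b* were lower, at -0.71 and -0.995.

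Genes within 100 kb of a called member were followed in the same comparison. *Mtap*, 93.4 kb from *Cdkn2a*, was lower in 67NR *Kmt2c* KO by 1.12 ± 0.24 on the log2 scale (adjusted p = 0.0065), the opposite of *Cdkn2a*. In *Kmt2d* KO cells, where *Ccnd3* was lower, *AI661453* was also lower (-2.24 ± 0.36, adjusted p = 0.0023), as was *Tomm6* (-0.84 ± 0.30, adjusted p = 0.074), and *1700001C19Rik* was higher (2.01 ± 0.43, adjusted p = 0.0096). *1700001C19Rik* and *AI661453* overlap in the annotation, so their reads are uncertain. Both moved the same way in *Kmt2c* KO cells, where *Ccnd3* was not called. Mean levels of *AI661453* were 52.3 CPM in WT, 9.03 CPM with *Kmt2c* KO and 10.5 CPM with *Kmt2d* KO. For *1700001C19Rik* they were 0.189, 1.21 and 0.717 CPM in the same order. The call of *Tomm6* was lost without any 1 of WT replicates 1 and 3 and *Kmt2d* KO replicates 1 and 2, and when the 6 libraries compared were fitted alone (adjusted p = 0.13).

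The genes most like a member over the 18 libraries were taken as those with the smallest root mean square difference of centred log2(CPM + 1), among 13882 genes, passing over genes that varied much less than the member. For *Cdkn2a* these were *Foxd1* (0.24) and *Blvrb* (0.28), for *Ccnd1* *Slc39a13* (0.15) and *Dhcr7* (0.19), for *Ccnd2* *Mthfd2* (0.21) and *Got1* (0.27), and for *Ccnd3* *Stub1* (0.18) and *Nr2f6* (0.20). *Cdk4* was nearest to *Mrpl49* (0.10) and *Phf5a* (0.12), *Cdk6* to *4933433G19Rik* and *Sh2d2a* (both 0.15), *Cdkn2c* to *Mutyh* (0.13) and *Hist1h2ag* (0.16) and *Cdkn1b* to *Arnt* (0.15) and *Exd2* (0.16). The SD of the members over the libraries was 0.37 to 1.25 on that scale.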

How the data were processed

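RNA was measured in 18 libraries of 168FARN and 67NR cells. The authors prepared strand-specific mRNA libraries, ran the reads through the VIPER pipeline with STAR against mm9 and deposited the whole-number counts of reads per gene symbol without normalization, 1 table for each line. Each column was matched to 1 sample by the line, the genotype or guide and the replicate number in its name, and 0 columns were unmapped. The control sgRNA columns of 168FARN were taken as WT, the only label of that line without a *Kmt2c* or *Kmt2d* KO.

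Counts were analysed with R 4.3.3 and edgeR 4.0.16 (TMM, the filter on low counts by group, robust quasi-likelihood fits and tests, Benjamini-Hochberg adjustment over all genes tested). KOs were compared within each line's 9 libraries, and lines within all 18. Standard errors follow from the log2 fold change and the F statistic. The fit without a block was run on simulated counts with known changes put in. Those counts held no shift of replicate 3, so they do not test how the fits handle it. Levels are CPM after TMM over all libraries, and CPM per kilobase divide by the longest coding transcript of the mm9 annotation, in which 20510 of 24385 symbols matched 1 gene. Replicates of a group differed by more than sampling noise.

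Deviations from the group mean correlated at 0.62 to 0.88 between libraries with the same replicate number in 168FARN. In 67NR these correlations were 0.32 to 0.69. Between libraries with different numbers they were -0.81 to 0.71 in 168FARN and -0.56 to 0.48 in 67NR. The positive ones were those between a replicate 1 and a replicate 2. So the numbers set replicate 3 apart, but do not pair replicates 1 and 2 of different genotypes. Values with the replicate as a block are given where they change a call. Named genes were the 10 members, 6 preset genes of the pathway, for each list the called genes with the 3 smallest p-values among those higher and among those lower, called genes within 100 kb of a called member, and for each member the 2 most like genes. *Mdm4* and list genes called only with the block were named after their values were seen. The members and lists were chosen with earlier results of these data known.

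The alternatives were DESeq2 1.42.0 or its size factors, no filter on low counts, an adjusted p under 0.05 without a fold change threshold, the replicate block, the 6 libraries of the compared groups, each library left out in turn, and, chosen after seeing the data, replicates 1 and 2 alone. Intervals and floors cover counting error or the spread between these libraries.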

Additional observations from a re-analysis of the deposited data

Results flagged for a closer look

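The effects of a KO on a member differed between the lines in 5 cases by a test of the difference itself, in edgeR's fit of all 18 libraries. For *Cdkn2a* the effect in 67NR exceeded that in 168FARN by 3.79 ± 0.64 (SE) on the log2 scale in *Kmt2c* KO (adjusted p = 8.0e-04) and by 3.50 ± 0.63 in *Kmt2d* KO (adjusted p = 0.0023), and it was called without any 1 of the 12 libraries compared. For *Ccnd3* the difference was -1.04 ± 0.33 in *Kmt2c* KO (adjusted p = 0.053) and -1.26 ± 0.33 in *Kmt2d* KO (adjusted p = 0.029). The first was lost without 168FARN WT replicate 1, 2 or 3, 168FARN *Kmt2c* KO replicate 1 or 2, 67NR WT replicate 3 or 67NR *Kmt2c* KO replicate 2, with adjusted p up to 0.19. The second was lost without 168FARN WT replicate 1, 168FARN *Kmt2d* KO replicate 2 or 67NR *Kmt2d* KO replicate 1, with adjusted p up to 0.12. For *Cdk6* the difference was 0.70 ± 0.25 in *Kmt2c* KO (adjusted p = 0.088), lost without 168FARN *Kmt2c* KO replicate 1 or 2, any 67NR WT replicate, or 67NR *Kmt2c* KO replicate 1 or 2, with adjusted p up to 0.20, and with no filter on low counts (0.71, adjusted p = 0.15). A control sgRNA is named for WT in 168FARN and not in 67NR, and any part of that in the differences cannot be told apart from the line.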

How the results depend on the processing

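The calls of *Cdkn2a* in both 67NR KOs, of *Cdk6* in both and of *Ccnd1* in *Kmt2c* KO held under every alternative run for them, and *Ccnd3* in *Kmt2d* KO under all but the 2 left-out libraries named above. The replicate block moved the members called between the 67NR KOs from 0 to 1 and the G1/S genes called from 0 to 2 in 168FARN *Kmt2c* KO and from 5 to 12 in 67NR *Kmt2c* KO. It moved the E2F targets called from 0 to 1 in 168FARN *Kmt2c* KO, 6 in 67NR *Kmt2c* KO and 9 in 67NR *Kmt2d* KO, and it changed no other count of these lists against WT, and no other count of members, by more than 1.5 times. DESeq2 called 1 E2F target in 67NR *Kmt2c* KO. With replicates 1 and 2 alone, 1 member was called in 168FARN *Kmt2c* KO and 2 between the 67NR KOs, 4 G1/S genes and 2 E2F targets in 168FARN *Kmt2c* KO, 3 and 1 in 168FARN *Kmt2d* KO, 11 and 6 in 67NR *Kmt2c* KO, and 12 E2F targets in 67NR *Kmt2d* KO. An adjusted p under 0.05 left 1 member in the difference between lines for *Kmt2c*. Leaving out 1 library gave 4 to 11 G1/S genes in 67NR *Kmt2c* KO and 3 to 8 in *Kmt2d* KO, 0 to 3 and 0 to 6 E2F targets, 1 to 3 and 1 to 2 members in the differences between lines for *Kmt2c* and *Kmt2d*, and 1 to 2 members between WT cells. The extremes came without 67NR WT replicate 3 (11 G1/S genes and 3 E2F targets), 67NR *Kmt2d* KO replicate 1 (3) and 67NR *Kmt2d* KO replicate 3 (6). For the alternatives other than the block, the share of all genes called was not taken. Their counts are therefore not a result about the members or the lists. Without division by length, *Cdk4* made up 82.0%, 81.3% and 81.7% of *Cdk4* plus *Cdk6* in the 168FARN groups (in the order WT, *Kmt2c*, *Kmt2d*) and 75.8%, 61.3% and 63.0% in 67NR, since the *Cdk6* transcript is longer. The cause of the other shifts was not tested.

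Signs turned for members near 0, none of them called. *Cdkn2c* was at 0.0059 with the block and 0.069 in replicates 1 and 2 in 168FARN *Kmt2d* KO, and at 0.0041, 0.017 and, with the 6 libraries compared, 0.020 in 67NR *Kmt2d* KO, and *Cdkn1b* was at 0.0016 in replicates 1 and 2 in 67NR *Kmt2c* KO. Without 1 library, the log2 differences in 168FARN ranged from -0.38 to 0.11 (*Cdkn1b*) and -0.12 to 0.34 (*Cdk4*) in *Kmt2c* KO, and from -0.16 to 0.23 (*Cdkn2c*), -0.48 to 0.17 (*Cdkn1b*), -0.25 to 0.71 (*Ccnd1*) and -0.036 to 0.42 (*Cdk4*) in *Kmt2d* KO. In 67NR they ranged from -0.51 to 0.39 (*Cdkn2c*), -0.14 to 0.067 (*Cdkn1b*) and -0.24 to 0.092 (*Cdk4*) in *Kmt2c* KO and from -0.45 to 0.48 (*Cdkn2c*) and -0.55 to 0.17 (*Ccnd2*) in *Kmt2d* KO. Over all alternatives, 62 values of single genes lost and 12 gained a call, and 834 did neither nor changed sign. Depth limits *Cdkn2b* and *Cdkn1c*, which the filter on low counts removed and for which no test is given.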
